A study of Bos taurus with 6 samples.

Results

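The Mediator complex was examined gene by gene in bovine 8-cell embryos that had developed with or without GSKA, an inhibitor of lactate dehydrogenase A that the study used to lower histone lactylation. Members were the protein-coding genes whose symbol was MED followed by a digit, together with CCNC, CDK8 and CDK19, and 32 of the 18862 genes in the expression tables met this rule. A list of 33 known subunits was set beside them, and 32 were found by symbol, while MED8, a head subunit, was not analysed here. Both groups were 8-cell embryos of Bos taurus produced by in vitro fertilisation, with the zona pellucida removed before lysis. The labels give the source of every library as female and its cell type as embryo. The paper describes no sexing of the embryos, so their sex was taken as unknown. The Control group had 3 libraries and received no GSKA, and the GSKA group had 3 libraries from embryos cultured with 200 pmol/L GSKA. Each library was made with a SMART-Seq low-input kit from embryo RNA and is 1 expression profile, with no separate cells in it. The study calls its replicates biological, but the number of embryos per library and whether the replicates came from separate cultures were not given, so the p-values below cover no more than the variation among these 6 libraries, part of which may be technical.

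Mediator is a large assembly that links DNA-bound transcription factors to RNA polymerase II at promoters. Its head and middle modules contact the polymerase, MED14 is the backbone that joins the modules, and the tail receives signals from activators. A separable kinase module, built from CDK8 or its paralog CDK19 with cyclin C, MED12 and MED13 or their paralogs, binds the core reversibly and competes with the polymerase. The bovine 8-cell stage is when the embryonic genome becomes broadly transcribed, so an embryo at this stage holds Mediator transcripts inherited from the oocyte together with those it makes itself.

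Values were FPKM, fragment counts scaled to transcript length and to all mapped fragments of the library, so levels of different genes are compared per length. The sum of FPKM over all genes was 497035 to 581839 per library, and 14295 to 15370 genes were above 0. Read depth was unknown. Mitochondrial genes held 13.2% of the FPKM sum in Control replicate 1 and 5.31% to 7.26% in the other libraries. All 10 oocyte genes on a fixed marker list were expressed. Their sum was 1590 to 2217 FPKM in the control libraries and 1996 to 2458 FPKM after GSKA. KHDC3L was at 47.7 to 81.0 FPKM in the control libraries and 148 to 206 FPKM after GSKA (limma adjusted p = 0.035). GDF9 and ZP2 were also higher without overlap. The other oocyte genes overlapped, and only OOEP had a lower mean after GSKA. Of 8 listed cleavage-stage genes, 3 were found by symbol, with sums of 639 to 1048 and 679 to 1074 FPKM. SUPT4H1 was lower without overlap, at 359 to 392 FPKM in the control libraries and 280 to 292 FPKM after GSKA. KLF17 and ZSCAN4 overlapped, with higher means after GSKA. For cumulus cells, 11 of 12 listed genes were found, and their sum was 41.3 to 58.6 FPKM in the control libraries and 72.8 to 83.3 FPKM after GSKA, with STAR the largest in each library. TNFAIP6 was at 4.31 to 11.3 FPKM in the control libraries and 15.2 to 16.6 FPKM after GSKA. VCAN was at 0.406 to 1.66 and 1.56 to 3.40 FPKM, and HAS2 at 3.84 to 8.10 and 6.64 to 8.94 FPKM. HSD3B1 was listed at 0 in the controls and in GSKA replicate 1 and at up to 3.40 FPKM in the other GSKA libraries. CD44 and PTX3 were lower in their means after GSKA. CD44 lay at 2.47 to 4.37 FPKM in the control libraries and 1.45 to 2.77 FPKM after GSKA, and PTX3 at 0.208 to 1.34 and 0.244 to 0.910 FPKM. LHCGR, CYP19A1, AMH and INHBA stayed below 1 FPKM in each library. Of these, LHCGR, AMH and INHBA were also lower in their means after GSKA, and CYP19A1 was higher. The sperm list, with 7 of 10 genes found, summed to 4.00 to 5.22 and 9.23 to 11.7 FPKM. PRM1 was listed at 0 in each library except GSKA replicate 1, where it was at 2.15 FPKM. ODF2 was at 4.11, 4.35 and 3.96 FPKM in the control libraries and at 2.14, 4.27 and 2.60 FPKM after GSKA. Its mean was thus lower after GSKA, while the means of the other sperm genes found were higher. The blood list, with 5 of 8 genes found, summed to 8.33 to 15.8 and 3.43 to 9.26 FPKM. The cumulus and sperm sums therefore differed between the groups without overlap, as did KHDC3L, GDF9, ZP2 and SUPT4H1. The part of these sums and genes in the results below was not tested. Because each library is a bulk sample, fewer cells of a type and less RNA per cell cannot be told apart.

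Mediator transcripts were unequal in the 8-cell embryo, and a single middle-module gene made up a large share of them. Over the 6 libraries, 3 members had a mean level above 100 FPKM, 14 lay between 10 and 100 FPKM, 13 between 1 and 10 FPKM, and 2 at 1 FPKM or less. MED10, a middle-module subunit, stood first with a mean of 794 FPKM and supplied 35.1%, 53.4% and 43.6% of the summed member FPKM in Control replicates 1, 2 and 3 and 52.8%, 54.1% and 52.4% in GSKA replicates 1, 2 and 3. MED21 and MED7, which pair with each other in the middle module as shown in yeast, followed at 112 and 104 FPKM, and MED6, at the junction of head and middle, at 94.3 FPKM. Of the 31 neighbouring pairs in this order, only MED10 and MED21 did not overlap in their ranges over the libraries. The levels of the other 30 neighbouring pairs overlapped, so the order below MED10 is not resolved step by step.

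By module, the median of the mean levels was 52.1 FPKM for the 8 middle subunits, 25.1 FPKM for the 3 outer subunits MED25, MED28 and MED30, 11.4 FPKM for the 6 head subunits, 4.09 FPKM for the 7 kinase-module genes and 2.84 FPKM for the 6 tail subunits. MED26 had a mean of 12.0 FPKM and MED14 of 5.53 FPKM. The middle module thus held 63.7%, 71.3% and 68.0% of the summed member FPKM in the control libraries and 75.3%, 75.0% and 74.9% after GSKA. The kinase module held 6.01% to 8.96%, and CCNC and CDK8 supplied 72.6% to 89.9% of its sum. The lowest member was MED23, a tail subunit that receives signals from the factor ELK1, with 0.105, 0.443 and 0.0570 FPKM in the control libraries and 0.0882, 0.531 and 0 FPKM after GSKA. Between 28 and 30 of the 32 members reached 1 FPKM in each library.

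**Figure D1:**
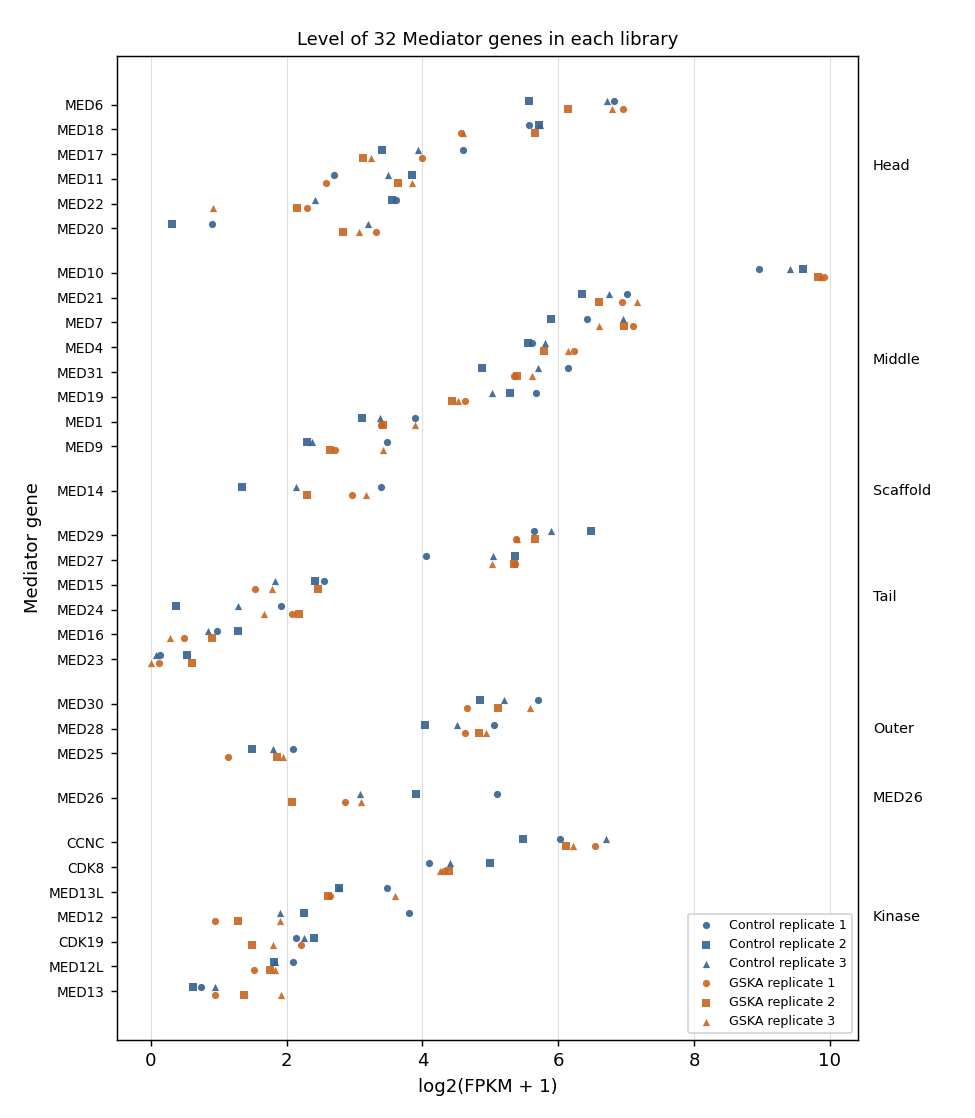
Level of each Mediator member in each library, as log2(FPKM + 1) with genes grouped by module, where points are the 3 Control and 3 GSKA libraries and marker shape gives the replicate. MED10 lies above every other member in all 6 libraries, and MED23 and MED16 have the lowest means, at 0.204 and 0.783 FPKM, with the order of the low members changing between libraries.

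The comparison of GSKA with control asks which Mediator genes differed in 8-cell embryos that were cultured with GSKA. None of the members passed the test across all genes. Of the 32 members, 29 reached 1 FPKM in at least 3 of the 6 libraries and were tested with limma on log2(FPKM + 1) among 10654 genes. The number with an adjusted p under 0.05 was 0, against 38 of all tested genes (0.357%), of which 24 were higher (0.225%) and 14 lower (0.131%) after GSKA. The smallest adjusted p of a member was 0.219. At an unadjusted p under 0.05, 5 members were lower (17.2%, against 4.03% of all tested genes) and 2 were higher (6.90%, against 9.4%). The lower ones were MED22, MED26, MED19, MED12 and MED18, and the higher ones MED20 and MED10, so both the head and the middle module held members on each side. Leaving out any 1 of the GSKA libraries reduced the lower count to 3, and the higher count was 0 without GSKA replicate 1 and 1 without GSKA replicate 2, GSKA replicate 3 or Control replicate 2.

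The groups did not overlap for 3 members that were lower after GSKA, MED22, MED19 and MED12 (10.3%, against 6.45% of all tested genes), and for 1 that was higher, MED10 (3.45%, against 12.9%). Of the 29 tested members, 14 had a log2 fold change above 0 and 15 below 0, whereas 57.2% of all tested genes lay above 0. The median log2 fold change was -0.06 for the members and 0.09 for all tested genes, and the member median was 0.09 without Control replicate 1 and 0.10 without GSKA replicate 1. The fold changes are on the log2(FPKM + 1) scale, which understates differences between low values. The 95% confidence interval of a member reached a median of 0.73 log2 units to either side of its estimate.

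**Figure D2:**
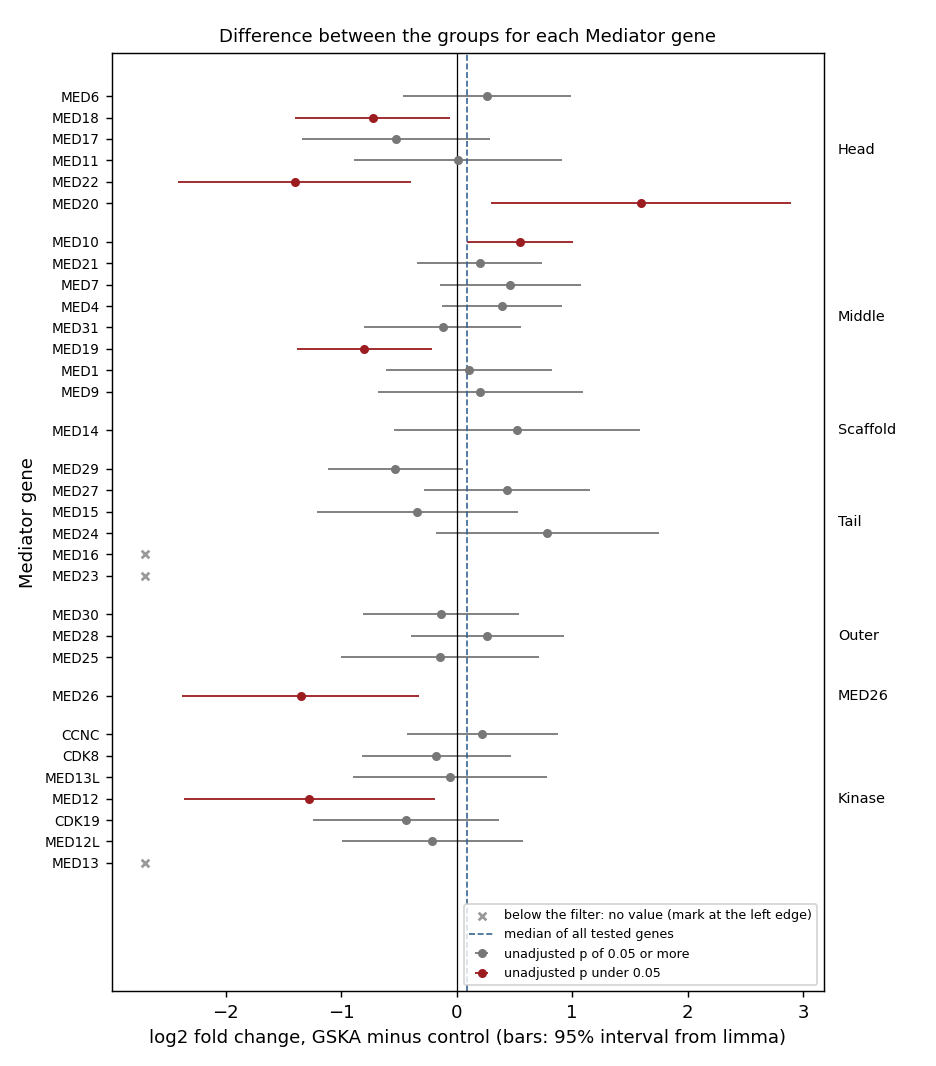
Difference of GSKA from control for each member, as log2 fold change on the log2(FPKM + 1) scale with its 95% confidence interval from limma, grouped by module; the dashed line is the median over all tested genes. The intervals of MED22, MED26, MED19, MED12 and MED18 lie below 0 and those of MED20 and MED10 above 0, none with an adjusted p under 0.05, and the crosses at the left edge mark MED13, MED16 and MED23, which were not tested.

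In the head module, MED22 and MED18 lay lower after GSKA and MED20 higher. MED22, on chromosome 11 (104249112 to 104255687, minus strand, in the coordinates of the files), pairs with MED11 in yeast. It was measured at 11.2, 10.7 and 4.36 FPKM in Control replicates 1, 2 and 3 and at 3.92, 3.46 and 0.888 FPKM after GSKA, with replicates in the same order. The highest GSKA value lay just below the lowest control value, so the groups were separate by a small gap. The means were 8.74 ± 3.80 FPKM (SD, n = 3) and 2.76 ± 1.63 FPKM (SD, n = 3). This is a log2 fold change of -1.40 (SE 0.467, 95% CI -2.41 to -0.39, limma adjusted p = 0.219). Its partner MED11 lay between 4.99 and 13.4 FPKM over the 6 libraries, with both groups spanning nearly the whole range, and had a log2 fold change of 0.01 (95% CI -0.89 to 0.91, adjusted p = 0.996). RPL7A, a ribosomal protein gene that starts 157 bp from MED22 on the other strand, differed by -0.28 log2 units (adjusted p = 0.704).

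MED18 and MED20 bind each other and form the movable jaw of the head in yeast. MED18, on chromosome 2 (125068641 to 125074216, minus strand), was at 46.2, 51.4 and 51.9 FPKM in the control libraries and at 22.8, 49.5 and 23.1 FPKM after GSKA. The groups overlapped, since GSKA replicate 2 lay within the control values while the other GSKA libraries lay below all of them. The means were 49.8 ± 3.12 and 31.8 ± 15.3 FPKM (SD, n = 3 each), with a log2 fold change of -0.73 (SE 0.310, 95% CI -1.40 to -0.06, limma adjusted p = 0.326).

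MED20, on chromosome 23 (15642765 to 15687902, minus strand), was at 0.876, 0.244 and 8.15 FPKM in the control libraries and at 8.98, 6.08 and 7.34 FPKM after GSKA. Control replicates 1 and 2 lay below every GSKA library, and Control replicate 3 lay among them. The means of 3.09 ± 4.39 and 7.47 ± 1.46 FPKM (SD, n = 3 each) gave a log2 fold change of 1.60 (SE 0.602, 95% CI 0.29 to 2.90, limma adjusted p = 0.273). Without Control replicate 3 the log2 fold change was 2.46 and the adjusted p 0.04995, just under the threshold, and MED20 was then the only member that passed; over all 16 alternatives its log2 fold change ranged from 1.02 to 2.46. MED20 shares 27158 bp on the same strand with USP49, a deubiquitinase gene with 0.334 to 2.85 FPKM, so reads in the shared stretch are uncertain in origin.

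The remaining head subunits showed no difference beyond the spread of the libraries. MED6 was at 112, 46.5 and 104 FPKM in the control libraries and at 123, 69.8 and 110 FPKM after GSKA, with the lowest value of each group in replicate 2. Its log2 fold change was 0.26 (95% CI -0.47 to 0.99, limma adjusted p = 0.784). MED17, the central scaffold of the head, was highest in Control replicate 1 at 23.2 FPKM and lay between 7.73 and 15.0 FPKM in the other 5 libraries, with a log2 fold change of -0.52 (95% CI -1.34 to 0.29, adjusted p = 0.588).

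In the middle module, MED10 lay higher and MED19 lower after GSKA, and each was separated between the groups. MED10, on chromosome 20 (66817755 to 66826001, plus strand), was at 495, 779 and 678 FPKM in the control libraries and at 965, 907 and 937 FPKM after GSKA. All GSKA libraries lay above all control libraries and were closer together than these. The means were 651 ± 144 and 936 ± 29.0 FPKM (SD, n = 3 each), with a log2 fold change of 0.55 (SE 0.212, 95% CI 0.09 to 1.01, limma adjusted p = 0.282). The summed FPKM of the middle module followed MED10: it was 899, 1042 and 1058 in the control libraries and 1376, 1258 and 1338 after GSKA, whereas without MED10 it was 404, 263 and 380 against 410, 351 and 401, with overlapping groups.

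MED19, on chromosome 15 (80932192 to 80940778, minus strand), lies with MED10 and MED14 in the hook of the complex. Control replicates 1, 2 and 3 gave 49.9, 38.1 and 31.5 FPKM and GSKA replicates 1, 2 and 3 gave 23.8, 20.6 and 22.0 FPKM. Every GSKA library lay below every control library, again with a smaller spread within the GSKA group. The means were 39.8 ± 9.30 and 22.1 ± 1.59 FPKM (SD, n = 3 each), with a log2 fold change of -0.80 (SE 0.268, 95% CI -1.38 to -0.22, limma adjusted p = 0.224). Over the 16 alternatives the log2 fold change stayed between -0.95 and -0.63 and the adjusted p between 0.125 and 0.531. TMX2, a thioredoxin-related gene that starts 430 bp from MED19 on the other strand, differed by 0.04 log2 units (adjusted p = 0.970).

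**Figure D3:**
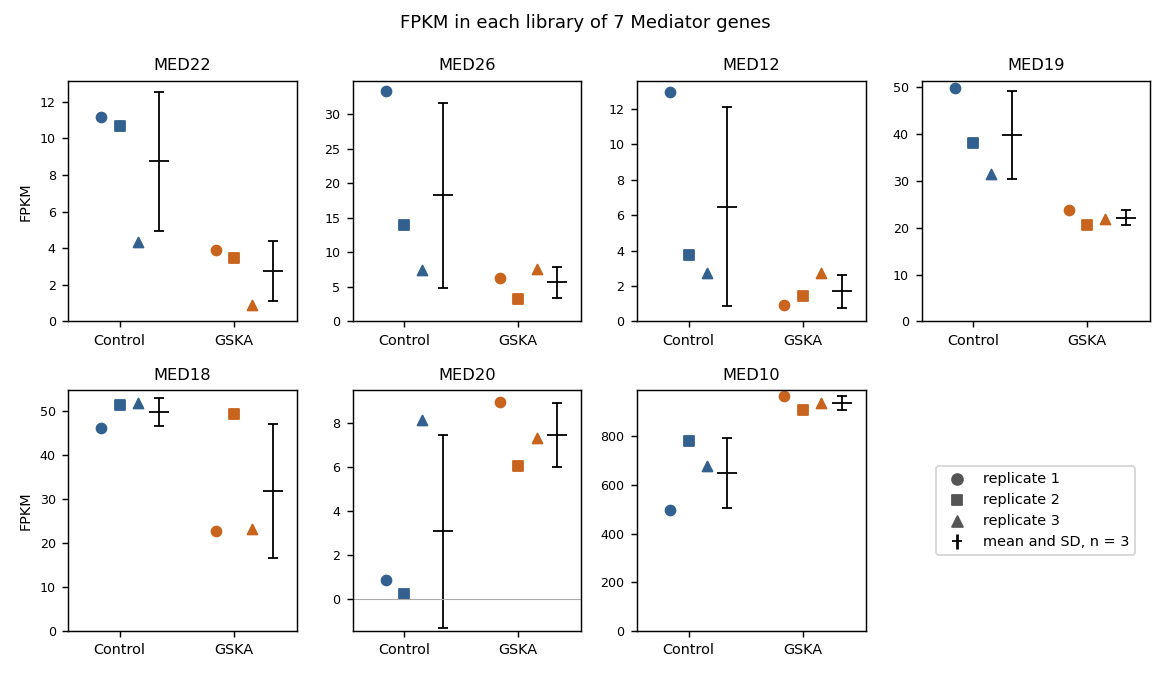
FPKM of the 7 members with an unadjusted p under 0.05 in each library, with 1 panel per gene and its own linear axis; marker shape gives the replicate, and bars are the mean and SD of each group. The groups are separate for MED22, MED19, MED12 and MED10 and overlap for MED26, MED18 and MED20; for MED12 the separation is 2.73 FPKM in Control replicate 3 against 2.72 FPKM in GSKA replicate 3.

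The other 6 middle subunits overlapped between the groups. MED4 and MED7 had log2 fold changes of 0.39 (95% CI -0.12 to 0.91) and 0.47 (95% CI -0.15 to 1.08), each with an adjusted p of 0.513. MED4 was at 48.0, 46.2 and 54.7 FPKM in the control libraries and at 73.8, 54.1 and 70.0 FPKM after GSKA, where only GSKA replicate 2 fell within the control range. MED21 differed by 0.20 log2 units (adjusted p = 0.774), MED31 of -0.12 (adjusted p = 0.904), and MED1, the subunit that binds nuclear receptors, of 0.10 (adjusted p = 0.923). MED9, a small subunit that pairs with MED4 in yeast, was at 10.1, 3.94 and 4.19 FPKM in the control libraries and at 5.54, 5.26 and 9.67 FPKM after GSKA, with 1 high library in each group. Its log2 fold change was 0.21 (95% CI -0.68 to 1.09, adjusted p = 0.869).

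MED26, which docks elongation factors onto Mediator and is found on complexes that lack the kinase module, lay lower after GSKA in its mean but overlapped between the groups. On chromosome 7 (6412462 to 6453156, plus strand), it was at 33.3, 14.0 and 7.46 FPKM in the control libraries and at 6.28, 3.21 and 7.57 FPKM after GSKA. Control replicate 1 was far above the other libraries, and GSKA replicate 3 lay above Control replicate 3. The means were 18.2 ± 13.4 and 5.69 ± 2.24 FPKM (SD, n = 3 each), with a log2 fold change of -1.35 (SE 0.476, 95% CI -2.38 to -0.32, limma adjusted p = 0.244). Without Control replicate 1 the log2 fold change was -0.82 (adjusted p = 0.433), and over the 16 alternatives it ranged from -1.82 to -0.82.

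The kinase module showed 1 gene at an unadjusted p under 0.05, MED12, which activates the kinase through cyclin C. MED12, on chromosome X (79494732 to 79517210, minus strand), was at 13.0, 3.77 and 2.73 FPKM in the control libraries and at 0.921, 1.45 and 2.72 FPKM after GSKA. The groups were separate by less than 0.01 FPKM, and Control replicate 1 was more than 3 times as high as any other library. The means were 6.49 ± 5.63 and 1.70 ± 0.927 FPKM (SD, n = 3 each), with a log2 fold change of -1.28 (SE 0.503, 95% CI -2.36 to -0.19, limma adjusted p = 0.290). Without Control replicate 1 it was -0.70 (adjusted p = 0.512). Its paralog MED12L was at 3.26, 2.51 and 2.56 FPKM in the control libraries and at 1.88, 2.36 and 2.54 FPKM after GSKA. These values lay close together and overlapped, with a log2 fold change of -0.21 (95% CI -0.99 to 0.57, adjusted p = 0.844). MED12 made up 79.9%, 60.0% and 51.6% of the MED12 and MED12L sum in the control libraries and 32.9%, 38.0% and 51.7% after GSKA, so this share overlapped only through GSKA replicate 3.

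The kinases themselves and their cyclin overlapped between the groups. CDK8 was at 16.1, 30.9 and 20.3 FPKM in the control libraries and at 19.0, 20.1 and 18.1 FPKM after GSKA, with a log2 fold change of -0.18 (95% CI -0.82 to 0.47, limma adjusted p = 0.844). CDK19, the paralog of CDK8, was at 3.41, 4.31 and 3.79 FPKM in the control libraries and at 3.63, 1.80 and 2.49 FPKM after GSKA, with a log2 fold change of -0.44 (95% CI -1.24 to 0.37, adjusted p = 0.651). CDK8 was the larger of this pair in each library, at 82.6% to 91.8% of their sum. CCNC, the gene of cyclin C, was at 64.3, 43.7 and 103 FPKM in the control libraries and at 92.6, 68.5 and 73.3 FPKM after GSKA. The GSKA values lay within the control range, and the log2 fold change was 0.22 (95% CI -0.43 to 0.87, adjusted p = 0.797). CCNC was 1.24 to 4.29 times the sum of CDK8 and CDK19.

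MED13 and its paralog MED13L connect the kinase module to the core. MED13L was at 10.1, 5.83 and 5.83 FPKM in the control libraries and at 5.24, 5.08 and 11.1 FPKM after GSKA, with 1 high library in each group. Its log2 fold change was -0.06 (95% CI -0.89 to 0.78, limma adjusted p = 0.970). MED13 did not pass the filter and lay at 0.672, 0.544 and 0.931 FPKM in the control libraries and at 0.922, 1.59 and 2.77 FPKM after GSKA. GSKA replicate 1 lay just below Control replicate 3, and the other GSKA libraries lay above all controls. In a fit with no filter its log2 fold change was 0.64 (adjusted p = 0.632). MED13L supplied most of the pair, at 93.8%, 91.5% and 86.2% of the MED13 and MED13L sum in the control libraries and 85.0%, 76.1% and 80.1% after GSKA; this share, given as a description, did not overlap between the groups.

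MED14, the backbone of the complex, was at 9.50, 1.54 and 3.41 FPKM in the control libraries and at 6.83, 3.94 and 7.97 FPKM after GSKA, on chromosome X (102781099 to 102841483, plus strand). Control replicate 1 was the highest and Control replicate 2 the lowest of all 6 libraries. The log2 fold change was 0.52 (95% CI -0.54 to 1.58, limma adjusted p = 0.689), and without Control replicate 1 it was 1.07 (adjusted p = 0.320).

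In the tail, 4 of 6 subunits were tested and none had an unadjusted p under 0.05. MED29, on the head side of the tail, was at 49.0, 88.4 and 58.3 FPKM in the control libraries and at 40.5, 49.5 and 40.9 FPKM after GSKA. GSKA replicate 2 lay barely above Control replicate 1, and the other GSKA libraries lay below all controls. The log2 fold change was -0.53 (95% CI -1.11 to 0.05, limma adjusted p = 0.422). MED24, which sits with MED23 and MED16 in the tail, was at 2.78, 0.289 and 1.43 FPKM in the control libraries and at 3.22, 3.52 and 2.17 FPKM after GSKA, with a log2 fold change of 0.79 (95% CI -0.18 to 1.75, adjusted p = 0.481). MED27 and MED15, the subunit that binds SREBP and SMAD factors, had log2 fold changes of 0.43 (adjusted p = 0.612) and -0.34 (adjusted p = 0.761). MED16 was not tested and lay at 0.972, 1.44 and 0.786 FPKM in the control libraries and at 0.407, 0.871 and 0.223 FPKM after GSKA, with overlapping groups.

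The outer subunits overlapped between the groups. The log2 fold change of MED28 was 0.27 (limma adjusted p = 0.752), MED30 of -0.13 (adjusted p = 0.889), and MED25, which binds the activation domains of transcription factors, of -0.14 (adjusted p = 0.909). MED25 was the lowest of these, at 1.20 to 3.25 FPKM, against 15.4 to 32.3 FPKM for MED28 and 24.2 to 51.2 FPKM for MED30.

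The spread of the members was not even over the libraries. Control replicate 1, the library with the largest mitochondrial share, held the highest value of 14 of the 29 tested members (48.3%, against 26.3% of all tested genes). Control replicate 2 held the lowest value of 12 members (41.4%, against 28.9%). The median deviation of the members from their own mean over the 6 libraries was 0.34, -0.23 and 0.01 log2 units in Control replicates 1, 2 and 3 and -0.11, -0.07 and 0.09 in GSKA replicates 1, 2 and 3. For all tested genes it was 0.04, -0.16 and 0.01 in the control libraries and 0.08, 0.05 and 0.05 after GSKA. Control replicate 1 was more than 2 times the mean of the other control libraries for 5 members (17.2%, against 14.4% of all tested genes), namely MED12, MED14, MED24, MED26 and MED9, with ratios of 3.99, 3.84, 3.23, 3.10 and 2.48. It was under 0.5 of that mean for 3 members (10.3%, against 14.1%), namely MED20, MED27 and MED11, with ratios of 0.209, 0.434 and 0.463. The coefficient of variation had a median of 36.5% in the control group and 23.8% in the GSKA group for the members and of 36.7% and 24.0% for all tested genes. The part of the mitochondrial share in these values was not tested.

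**Figure D4:**
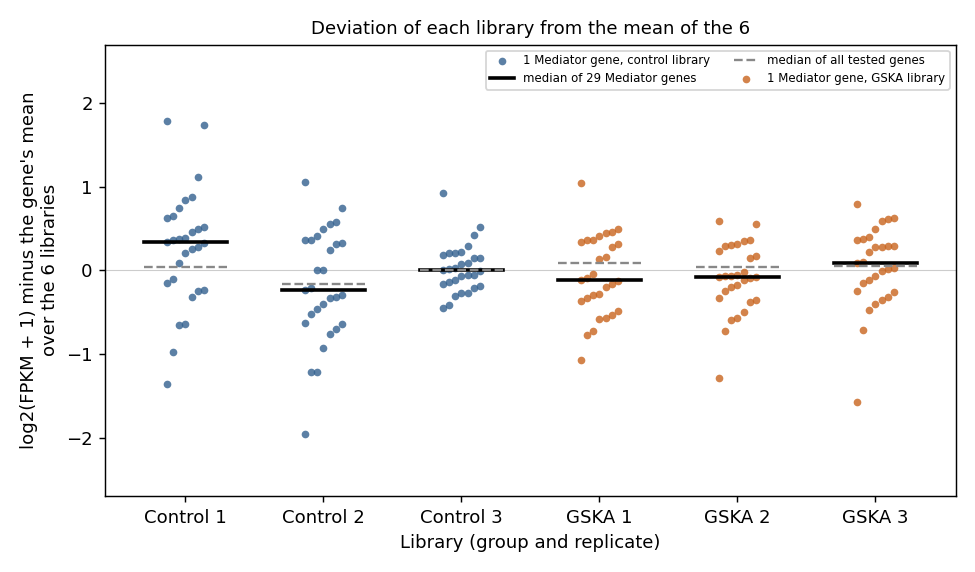
Deviation of each tested member from its own mean over the 6 libraries, in log2 units, by library; points are members and the lines mark the median of the members and of all tested genes. The member median is highest in Control replicate 1, at 0.34, and lowest in Control replicate 2, at -0.23, while the GSKA libraries lie between -0.11 and 0.09.

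Genes whose products work with Mediator were examined from a list of 39, of which 36 were found by symbol and 30 were tested. The list held mainly elongation factors linked to MED26, cohesin and its loader, and transcription factors known to bind Mediator subunits. None had an adjusted p under 0.05 in limma (0.357% of all tested genes). With unadjusted p under 0.05, 1 was higher (9.4% of all tested genes) and 0 were lower (4.03%). Of the 30 log2 fold changes, 14 were above 0 (57.2% of all tested genes) and 16 below 0, with a median of -0.01. The gene with the smallest p was ICE2, a subunit of the little elongation complex that MED26 helps to recruit to small nuclear RNA genes. ICE2 was at 1.93, 2.72 and 5.01 FPKM in the control libraries and at 9.50, 5.43 and 9.04 FPKM after GSKA, with separate groups and a log2 fold change of 1.12 (SE 0.394, 95% CI 0.27 to 1.98, adjusted p = 0.242). PPARG, a nuclear receptor, was the other tested partner with separate groups, against 12.9% of all tested genes that were separate and higher, and lay at 2.08, 1.57 and 0.570 FPKM in the control libraries and 4.48, 2.44 and 3.00 FPKM after GSKA, with a log2 fold change of 0.87 (adjusted p = 0.379). The other members of the little elongation complex on the list had log2 fold changes of 0.51 for ICE1 (adjusted p = 0.618) and -0.54 for ZC3H8 (adjusted p = 0.472), so they lay on both sides of 0. Of the other elongation genes, ELL2 differed by -0.52 log2 units (adjusted p = 0.603) and CDK9, the kinase of P-TEFb, by 0.28 (adjusted p = 0.643). For cohesin, the log2 fold change of STAG2 was -0.51 (adjusted p = 0.611), MAU2 of the loader 0.50 (adjusted p = 0.629) and its partner NIPBL -0.09 (adjusted p = 0.931). The transcription factors SREBF1, GLI3, THRA, VDR and RXRA and the cohesin subunit STAG1 were below the filter.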

How the data were processed

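Expression tables, deposited by the authors as FPKM per gene, were used: 3 Control and 3 GSKA libraries of 8-cell embryos. According to the submitters' notes the tools were StringTie 1.3.4d, HISAT2 2.0.4 and cutadapt 1.9, with edgeR for the comparison. No genome build is stated in the sources used here. A table of the authors' own comparison (fold changes, p-values and q-values) was not used. FPKM carries no counts, so count models were not fitted and depth is unknown. Groups came from the sample labels. Genes that reached 1 FPKM in 3 or more libraries were tested with limma 3.58.1 (R 4.3.3, intensity trend, two-sided) on log2(FPKM + 1), with Benjamini-Hochberg adjustment over all tested genes and a threshold of 0.05; the code was tested on simulated data. The kit does not mark strand, so reads of overlapping genes cannot be told apart. This limit holds for 8 members with an overlapping gene: MED6, MED11, MED12L, MED16, MED20, MED24, MED31 and CCNC. Values in every library were given for MED22, MED26, MED14, the kinase module, members with an unadjusted p under 0.05 or separate groups, and the highest and lowest members of the head, middle and tail, and the 8 partner genes with the smallest p were named. MED4, MED16, MED24, NIPBL and the neighbouring genes were added after their values were seen. The values of 1 listed gene are not reported here. The members and lists were chosen with earlier results of these data known. Alternatives were other pseudocounts, filters and scalings, no trend, a replicate block and leaving out each library.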

Additional observations from a re-analysis of the deposited data

How the results depend on the processing

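The counts of calls, the member median and the fold changes of the named genes were recomputed under 16 alternatives, 10 settings and 6 left-out libraries. Levels, shares and tallies by library were not, and CDK19, MED12, MED12L, MED15, MED22, MED24, MED25, ICE1 and PPARG gave no value with a filter of 5 FPKM. The count of members with an adjusted p under 0.05 was 0 in each setting and 0 to 1 when libraries were left out, the 1 being MED20 without Control replicate 3; no partner gene passed in any. The count of members at an unadjusted p under 0.05 and higher, 2 as reported, was 1 with median scaling, with no filter and with no trend, and 0 to 3 when libraries were left out. The lower count, 5 as reported, was 6 with quantile normalization, 4 with no trend, 3 with a filter of 5 FPKM and 2 with no filter. It was 3 to 4 when libraries were left out. The number of all tested genes with an adjusted p under 0.05, 38 as reported, was 21 with median scaling, 0 with no filter, 7 with no trend, 15 with a pseudocount of 0.1 and 4 to 42 when libraries were left out. With a replicate block it was 19. Same-numbered libraries deviated with correlations of -0.08, 0.14 and -0.12, and the other pairs with -0.12 to 0.18. Deviations from the mean of only 3 libraries sum to 0 within a group. These values therefore cannot decide whether the samples were paired. The block left the member counts at 5 lower and 2 higher. The direction turned for 10 of the 29 tested members when a library was left out. Log2 fold changes then spanned -0.072 to 0.54 for CCNC, -0.38 to 0.071 for CDK8, -0.38 to 0.18 for MED13L, -0.14 to 0.50 for MED6, -0.040 to 0.58 for MED9, -0.069 to 0.32 for MED1, -0.31 to 0.40 for MED11, -0.29 to 0.11 for MED25, -0.37 to 0.097 for MED30 and -0.47 to 0.17 for MED31, and for the other genes -0.27 to 0.086 for NIPBL and -0.28 to 0.22 for TMX2. In other settings, MED11 was at -0.0011 with TPM scaling, -0.090 with median scaling, -0.070 with quantile normalization and -0.040 with scaling without mitochondrial genes, and TMX2 at -0.069 with median scaling and -0.013 with scaling without mitochondrial genes. The causes of these shifts were not tested. The member median ranged from -0.20 to 0.15, on both sides of 0. FPKM gives no depth, so the precision of low values such as those of MED23, MED16 and MED13 is unknown.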

Other observations

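The annotation in the files places 35 genes in the Mediator complex. Of these, 29 were members by symbol, 3 members (CDK19, MED1 and MED28) did not carry the term, and 6 annotated genes had other names. The 2 of these with symbols, chosen after their values were seen, did not overlap between the groups. THRAP3, a nuclear protein of RNA processing that was first isolated with Mediator, was at 30.7, 39.5 and 51.8 FPKM in the control libraries and at 69.8, 62.3 and 52.3 FPKM after GSKA, with a log2 fold change of 0.61 (95% CI 0.03 to 1.18; limma adjusted p = 0.339). ELOVL1, a fatty acid elongase whose entry also carries the Mediator term, was at 16.8, 20.8 and 24.6 FPKM in the control libraries and at 30.6, 34.9 and 27.5 FPKM after GSKA, with a log2 fold change of 0.57 (95% CI -0.02 to 1.16; adjusted p = 0.386). Among all tested genes, 12.9% were higher after GSKA with no overlap.

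TXNDC17, a thioredoxin-like gene that shares 1001 bp with MED31 on the other strand, was also noticed after its values were seen. It was at 8.65, 6.33 and 10.6 FPKM in the control libraries and at 2.71, 4.93 and 2.60 FPKM after GSKA, with a log2 fold change of -1.13 (limma adjusted p = 0.209), against -0.12 for MED31.

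The 32 members lay on 18 chromosomes, with 6 on chromosome 19 and 2 on X. Over the 32 members, the span of the gene and its mean FPKM had a Spearman rho of -0.37, given as a description of genes that share the same libraries.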
